A study of Mus musculus with 6 samples.

Results

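The 10 chemokine genes described here are Cxcl1, Cxcl2, Cxcl3, Cxcl5, Cxcl10, Cxcl16, Cx3cl1, Ccl2, Ccl5 and Ccl20. They were chosen by name, with earlier results of these data known, as signals with which keratinocytes call in white blood cells. All 10 were found among the 55416 genes of the count table, each under 1 Ensembl identifier. They were measured by RNA sequencing in 3 Cebpb knockout and 3 wild type libraries of primary keratinocytes, the cells that build the epidermis. Both genotypes were cells of C57BL/6J:129 hybrid pups 1 to 2 days old, grown in 0.05 mM calcium with epidermal growth factor, exposed 5 days after plating to UVB at 10 mJ/cm2 (312 nm lamp) and collected 8 h later. No library of unexposed cells entered the comparison, so the values set the irradiated knockout against the irradiated wild type and do not measure the response to UVB. The labels do not give how Cebpb, the gene of the transcription factor C/EBPβ, was deleted, and they do not tie a library to an animal or a culture. The p-values therefore rest on the spread among these libraries, some or all of which may be technical.

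Chemokines are small secreted proteins that bind receptors on white blood cells and set the direction in which those cells migrate. Epidermal keratinocytes make them after wounding, infection or ultraviolet light, mainly through NF-κB, and through interferon-activated factors in the case of Cxcl10. The CXC chemokines Cxcl1, Cxcl2, Cxcl3 and Cxcl5 act on the receptor Cxcr2 and attract neutrophils. Ccl2 and Cx3cl1 attract monocytes through Ccr2 and Cx3cr1. Cxcl10, Cxcl16, Ccl5 and Ccl20 attract lymphocytes, Cxcl10 through Cxcr3, Cxcl16 through Cxcr6 and Ccl20 through Ccr6, and Ccl20 also attracts dendritic cell precursors. Cx3cl1 and Cxcl16 differ from the others in that they are made as membrane proteins, from which proteases of the ADAM family shed a soluble form.

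Libraries held 81256192 to 92987497 counts in knockout cells and 107757415 to 122797031 in wild type cells, so that 3 counts amount to at most 0.0349 CPM in any of them, where CPM are counts scaled to library size with trimmed-mean (TMM) factors. Cebpb had 78 to 109 counts in the knockout libraries and 12036 to 18184 in the wild type libraries. Keratinocyte markers were abundant, with 8 genes summing to 21100 to 22200 CPM in knockout and 36200 to 40900 CPM in wild type cells. Of these 8, Krt5, Krt14, Trp63, Krt15, Itga6, Col17a1 and Dsg3 were called lower and Itgb4 higher. The summed level of Ddx3y, Eif2s3y, Kdm5d and Uty, all on the Y chromosome, was 0.101 to 0.158 CPM in knockout and 60.7 to 68.1 CPM in wild type libraries, so sex composition runs with genotype through every comparison and cannot be told apart from it. Mitochondrial genes took 1.79% to 2.17% of counts in knockout and 1.47% to 1.64% in wild type libraries, which do not overlap, and the part of this in the chemokine values was not tested. In bulk RNA, fewer cells of a type and less RNA per cell cannot be told apart either.

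Promoter windows are shown for the members whose letters hold a match to the NF-κB consensus, since most of these genes are known NF-κB targets. RefSeq windows (GRCm38.p6) of 250 bases before the start were at hand for 6 of the 10 members, and 5 of them, Cxcl1, Cxcl2, Cxcl3, Cxcl10 and Ccl20, held such a match on either strand, against 3.9% of 32851 promoter windows in the table. Capitals mark matches to any motif searched, and each sequence runs 5′ to 3′ and ends at the base before the start. The last 100 bases of the searched window are printed for Cxcl1, Cxcl2, Cxcl3 and Ccl20, and all 250 bases for Cxcl10. The stretches lie at chr5:90891145-90891244 (plus strand, Cxcl1), chr5:90903799-90903898 (plus, Cxcl2), chr5:90786001-90786100 (plus, Cxcl3), chr1:83116666-83116765 (plus, Ccl20) and chr5:92348890-92349139 (minus, Cxcl10).
Cxcl1: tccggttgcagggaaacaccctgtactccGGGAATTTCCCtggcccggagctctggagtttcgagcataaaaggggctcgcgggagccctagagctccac
Cxcl2: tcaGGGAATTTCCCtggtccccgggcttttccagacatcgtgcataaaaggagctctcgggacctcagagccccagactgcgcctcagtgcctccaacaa
Cxcl3: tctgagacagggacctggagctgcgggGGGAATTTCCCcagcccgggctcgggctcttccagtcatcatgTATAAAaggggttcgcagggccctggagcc
Ccl20: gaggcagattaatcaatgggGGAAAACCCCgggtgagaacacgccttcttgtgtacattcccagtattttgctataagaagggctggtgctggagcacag
Cxcl10: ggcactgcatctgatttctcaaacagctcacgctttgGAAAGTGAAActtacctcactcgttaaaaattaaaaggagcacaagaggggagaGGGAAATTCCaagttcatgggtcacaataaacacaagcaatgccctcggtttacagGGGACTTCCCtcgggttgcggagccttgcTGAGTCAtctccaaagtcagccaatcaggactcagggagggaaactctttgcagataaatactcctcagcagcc

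The neutrophil attractants Cxcl1, Cxcl2 and Cxcl3 carried the same letters, GGGAATTTCC, beginning 71, 97 and 73 bases before the start, with an overlapping match on the opposite strand. Cxcl10 held a pair of such matches, at 159 and 103 bases before the start, and was the one member window with the letters GAAA, any 2 bases and GAAA of an interferon response element (2.98% of all windows) and with TGANTCA, bound by AP-1 (6.75%). TATAAA lay in the windows of Cxcl3 and Cx3cl1 (12.4% of all windows). The window of Cx3cl1 held no match to the NF-κB consensus, and none of the 6 member windows held TTGCNNAA, a form of the C/EBP site (9.56% of all windows). The 6 windows are too few to tell this from the share of all windows. Cxcl5, Cxcl16, Ccl2 and Ccl5 had no window at hand and were not searched. These matches describe letters in short windows and not binding.

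Across the members the difference between genotypes ran one way. In the quasi-likelihood test of edgeR, with Benjamini-Hochberg adjustment over 17659 genes, 9 of the 10 chemokines were higher in knockout cells and 1, Cxcl10, was not called. None was lower, also at an unadjusted p under 0.05 (0 members), and the count of lower members was 0 with DESeq2 and limma voom too. Over all genes 24.8% were called higher and 23.7% lower, 48.6% in either direction. A rise of at least 1 log2 unit was reached by 7 members, where 8.56% of all genes were called with such a rise, and the knockout and wild type libraries did not overlap for 8 members, all with knockout higher, against 28.7% of all genes with knockout higher and 56.4% in either direction. The median log2 fold change was 1.79 for the 10 members and 0.01 for all genes. With library totals in place of TMM, the median of all genes moved to 0.21, with 6478 genes called higher and 2452 lower in place of 4387 and 4192, and the members' log2 fold changes moved up with it by about as much, as did those of the lists given further on.

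**Figure D1:**
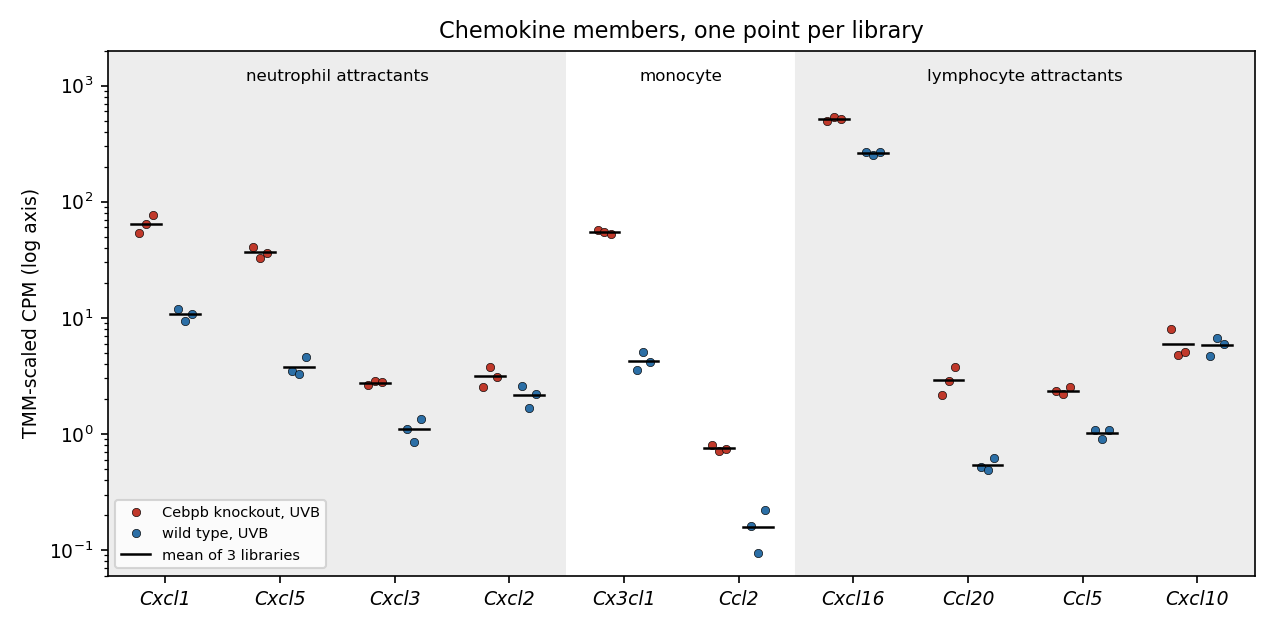
TMM-scaled CPM on a log axis of the 10 chemokines, with a point for each library (red, Cebpb knockout; blue, wild type, both after UVB) and a bar at the mean of 3 libraries. Knockout points lie above all wild type points for every gene except Cxcl2 and Cxcl10, where the groups overlap.

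Neutrophil attractants were all called higher, but by unequal amounts, and the call of Cxcl2 was not stable. Cxcl1, also known as KC, stood at 53.9, 63.7 and 77.2 CPM in the knockout libraries, against 11.9, 9.46 and 10.9 CPM in the wild type libraries. Every knockout value was far above every wild type value, although the knockout libraries spread more widely. The mean was 64.9 ± 11.7 CPM in knockout and 10.8 ± 1.23 CPM in wild type cells (SD, n = 3 each), a log2 fold change of 2.59 ± 0.12 (SE, edgeR adjusted p = 5.12e-10) or 6.04-fold.

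Cxcl5, made largely by epithelial cells, had the largest rise of the 4. Its level was 41.1, 33.1 and 36.5 CPM in knockout libraries, against 3.46, 3.29 and 4.59 CPM in wild type libraries. The groups were widely separated, and the log2 fold change of 3.29 ± 0.13 (SE, edgeR adjusted p = 9.67e-12) was exceeded by 0.521% of all genes tested. Cxcl3 had fewer counts, at 2.65, 2.85 and 2.78 CPM in knockout libraries, against 1.11, 0.843 and 1.34 CPM in wild type libraries. The knockout libraries were close to each other and all lay above the wild type ones, with a log2 fold change of 1.33 ± 0.20 (SE, edgeR adjusted p = 3.99e-05).

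Cxcl2, which neutrophils and macrophages also make, moved least. It stood at 2.54, 3.8 and 3.07 CPM in the knockout libraries, against 2.59, 1.67 and 2.23 CPM in the wild type libraries. The groups overlapped, since knockout library 4 lay just under wild type library 1. The log2 fold change was 0.54 ± 0.20 (SE, edgeR adjusted p = 0.0336), and 21.1% of all genes had a larger one. The call was lost without wild type library 2 (0.38, edgeR adjusted p = 0.145) or 3 (0.55, adjusted p = 0.0852) and without knockout library 5 (0.38, adjusted p = 0.186) or 6 (0.56, adjusted p = 0.0654).

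Because the 4 genes moved by different amounts, their proportions shifted. Cxcl5 took 30.5% to 41.0% of the summed counts of the 4 in the knockout libraries, against 18.1% to 24.1% in the wild type libraries. Cxcl2 took 2.54% to 3.68% in knockout and 10.9% to 13.6% in wild type libraries. Cxcl3 took 2.33% to 2.75% in knockout and 5.52% to 7.05% in wild type libraries, so that neither gene's shares overlapped between genotypes. Cxcl1 kept a like share, 53.8% to 64.6% in knockout and 57.2% to 62.5% in wild type libraries. Within a library, where scaling plays no part, the log2 ratio of Cxcl1 to Cxcl2 was 4.37 ± 0.29 in knockout and 2.33 ± 0.16 in wild type cells (SD, n = 3 each), a difference of 2.04, and that of Cxcl2 to Cxcl5 was -3.57 ± 0.45 in knockout and -0.82 ± 0.35 in wild type cells, a difference of -2.75. All 6 pairs of these genes had ratios that did not overlap between genotypes, but the pairs are drawn from the same 4 genes. How often ratios of other gene pairs do so was not measured. Of single genes, 56.4% did not overlap in either direction. The exact two-sided permutation p was 0.1 for each pair, also after adjustment over the 6, which is the smallest p that 3 against 3 libraries can give.

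**Figure D2:**
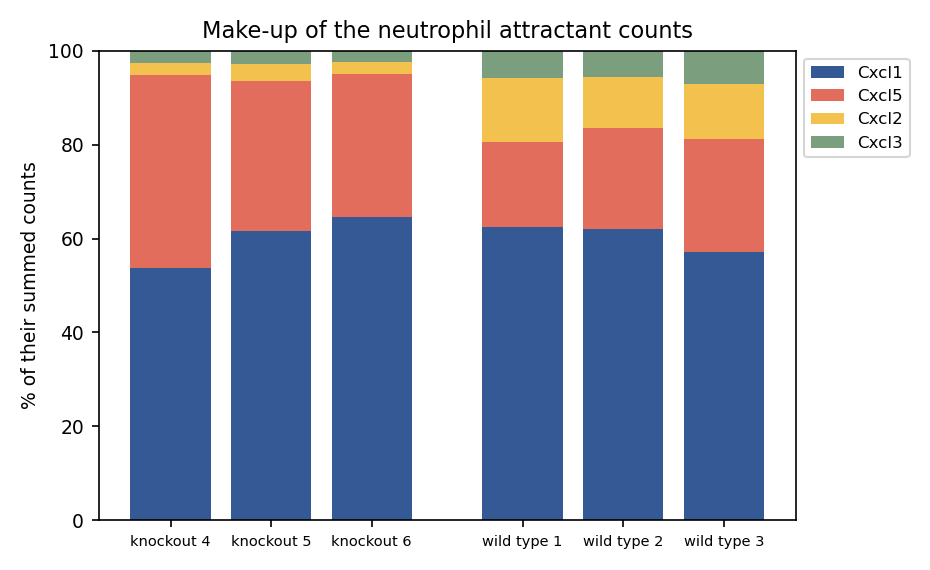
Percent of the summed counts of Cxcl1, Cxcl5, Cxcl2 and Cxcl3 that each gene took, in a stacked bar for each library (knockout 4 to 6, wild type 1 to 3). The Cxcl5 segment is larger in the knockout bars (30.5% to 41.0%) and the Cxcl2 segment larger in the wild type bars (10.9% to 13.6%).

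Cxcl2 and Cxcl3 are similar in sequence. The longest identical stretch between the longest coding transcripts of members was 110 bases, for Cxcl2 and Cxcl3, shorter than the reads of 150 bp. It was 23 bases for Cxcl1 with Cxcl2 or with Cxcl3. Reads shared between genes were not measured.

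The neutrophil attractants lie in a row of CXC genes on chromosome 5, in the order Cxcl5, Ppbp, Pf4, Cxcl3, Cxcl15, Cxcl1 and Cxcl2 in RefSeq. Ppbp, whose protein yields another Cxcr2 ligand and which is best known from platelets, stood at 22, 18.9 and 19.6 CPM in the knockout libraries, against 3.73, 3.70 and 4.18 CPM in the wild type libraries. It rose by 2.38 ± 0.11 log2 units (SE, edgeR adjusted p = 6.52e-11). Its neighbour Pf4, which encodes platelet factor 4, lay near the floor of detection, at 0.0246 ± 0.0253 CPM in knockout and 0.246 ± 0.0577 CPM in wild type cells (SD, n = 3 each), and was called lower. Cxcl15 had 0 counts in every library. Neighbouring genes of the row thus differed in level and in direction.

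**Figure D3:**
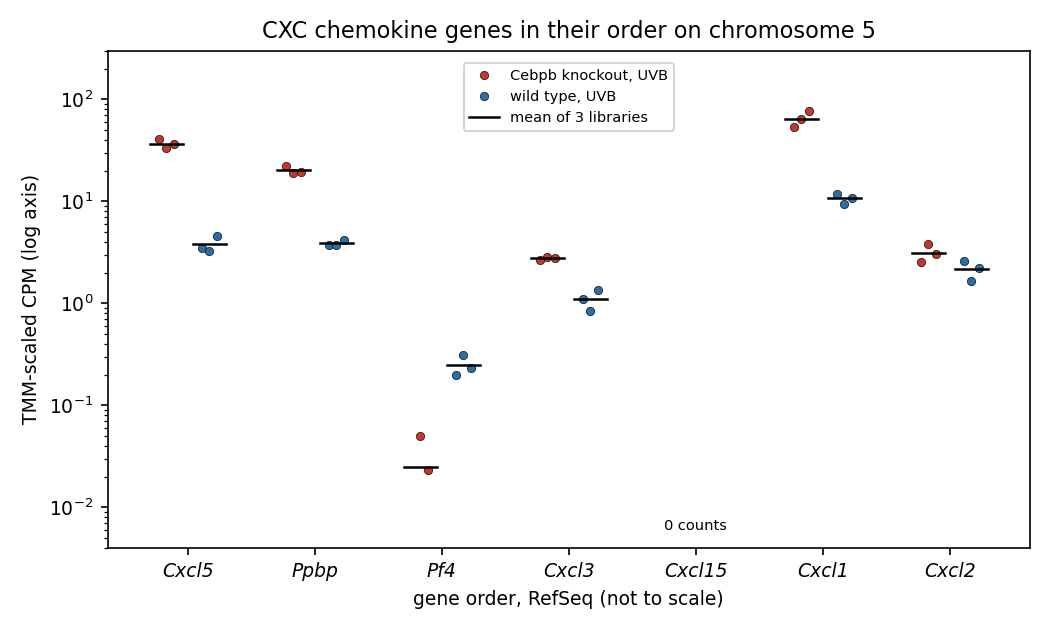
TMM-scaled CPM on a log axis of the 7 CXC chemokine genes in their order along chromosome 5 (not to scale), with a point for each library (red, knockout; blue, wild type) and a bar at the mean. Cxcl5, Ppbp, Cxcl3 and Cxcl1 have all knockout points above all wild type points, Pf4 has them below (knockout library 4, at 0, is not drawn), and Cxcl15 had 0 counts.

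The monocyte attractant Cx3cl1, or fractalkine, showed the largest rise of the 10 members. Its level was 57.3, 54.8 and 53.1 CPM in knockout libraries, against 3.53, 5.07 and 4.13 CPM in wild type libraries. The knockout libraries differed from each other by little, with a coefficient of variation of 3.85%, and none came near a wild type value. The log2 fold change was 3.70 ± 0.11 (SE, edgeR adjusted p = 5.66e-13), or 13-fold, and 0.351% of all genes had a larger one.

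Ccl2, the classical attractant of inflammatory monocytes, was the scarcest member, in CPM and per transcript length. It had 76, 71 and 64 counts in the knockout libraries, against 18, 11 and 22 in the wild type libraries, or 0.753 ± 0.0418 CPM in knockout and 0.159 ± 0.0630 CPM in wild type cells (SD, n = 3 each). The groups did not overlap, and the log2 fold change was 2.25 ± 0.38 (SE, edgeR adjusted p = 1.37e-04), the widest error of the 10. With so few counts its size is known only within 1.43 to 3.06 log2 units (95% interval). Gm17268, which overlaps Ccl2 on the opposite strand, had 0 counts in every library.

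Of the lymphocyte attractants 3 of 4 rose. Ccl20, which draws Ccr6-bearing lymphocytes and dendritic cell precursors to epithelia, stood at 2.14, 2.84 and 3.76 CPM in knockout libraries, against 0.520, 0.490 and 0.622 CPM in wild type libraries. The groups did not overlap, although the knockout values spread by a coefficient of variation of 27.8%. It rose by 2.42 ± 0.24 log2 units (SE, edgeR adjusted p = 4.03e-07).

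Ccl5, or RANTES, a chemokine of T cells and monocytes, stood at 2.33, 2.20 and 2.56 CPM in knockout libraries, against 1.08, 0.912 and 1.08 CPM in wild type libraries. Each knockout library held roughly the same level, above all wild type libraries, and the log2 fold change was 1.21 ± 0.19 (SE, edgeR adjusted p = 6.29e-05). Cxcl16, a membrane chemokine that also takes up oxidised lipoprotein, was the most abundant member, in CPM and per transcript length. It stood at 498, 534 and 520.0 CPM in knockout libraries, against 266, 252 and 267 CPM in wild type libraries. Its replicates agreed closely, and the log2 fold change of 0.98 ± 0.06 (SE, edgeR adjusted p = 5.5e-10), or 1.98-fold, was the most precise of the set. Zmynd15 overlaps Cxcl16 on the opposite strand, and the strand setting of the counting is not given in the sources used here. Zmynd15 held 11.5 ± 1.31 CPM in knockout and 2.16 ± 0.496 CPM in wild type cells (SD, n = 3 each). It was called higher, with a log2 fold change of 2.41 (edgeR adjusted p = 4.28e-09). Whether reads of either gene were counted to the other was not tested.

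Cxcl10, an interferon-induced attractant of activated T cells, was the exception. It stood at 7.95, 4.74 and 5.06 CPM in the knockout libraries, against 4.67, 6.71 and 5.96 CPM in the wild type libraries. The groups overlapped, with the highest value in knockout library 4 and the lowest in wild type library 1. The log2 fold change was 0.03 ± 0.19 (SE, edgeR adjusted p = 0.896), with a 95% interval of -0.36 to 0.43. It was -0.24 without knockout library 4 and -0.10 without wild type library 1, and was called under no alternative tried (adjusted p between 0.278 and 0.967). Art3, which overlaps Cxcl10 on the opposite strand, held 1.17 ± 0.0741 CPM in knockout and 0.626 ± 0.132 CPM in wild type cells (SD, n = 3 each). Art3 was called higher, with a log2 fold change of 0.90 (edgeR adjusted p = 0.00737). Part of the reads of either gene may belong to the other, which was not tested.

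**Figure D4:**
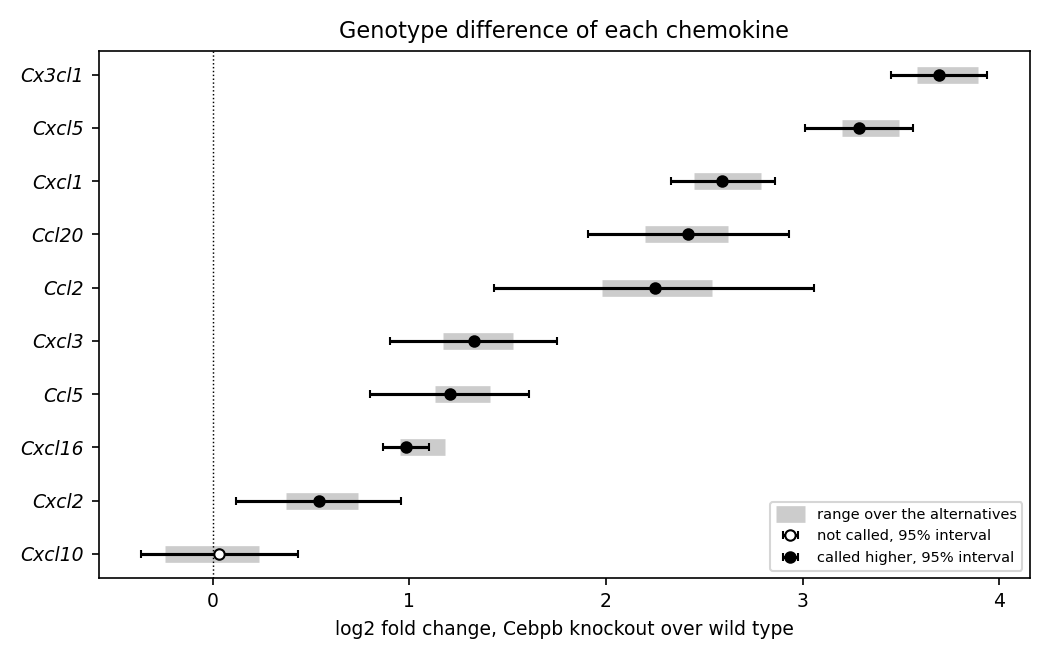
Log2 fold change, Cebpb knockout over wild type, of each chemokine by edgeR, with its 95% interval (line) and the range over the alternatives tried (grey bar). The intervals of 9 members lie above 0, from Cxcl2 at 0.54 to Cx3cl1 at 3.70, and that of Cxcl10 (open circle) spans 0.

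The wider picture by class was that the summed CPM of the neutrophil attractants was 100.1 to 119.5 in knockout and 15.3 to 19.1 in wild type libraries, and that of the monocyte attractants 53.8 to 58.1 in knockout and 3.69 to 5.16 in wild type libraries. The lymphocyte attractants, dominated by Cxcl16, summed to 510.4 to 543.4 CPM in knockout and 259.7 to 274.6 CPM in wild type libraries. The median log2 fold change was 1.96 for the 4 neutrophil, 2.97 for the 2 monocyte and 1.10 for the 4 lymphocyte attractants. Whether the classes differ was not tested, and each class spans a wide range, such as 0.54 to 3.29 among neutrophil attractants.

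Levels were set in order per kilobase of the longest coding transcript in GENCODE M21. In knockout cells Cxcl16 led at 192 ± 6.67 CPM per kb, followed by Cxcl1 (68.1 ± 12.3), Cxcl5 (23.4 ± 2.55) and Cx3cl1 (16.6 ± 0.639), with no overlap between neighbours. Ccl5 (4.44 ± 0.342) and Cxcl10 (4.37 ± 1.31) overlapped, as did Cxcl3 (2.71 ± 0.0990) with Ccl20 (2.05 ± 0.571) and Ccl20 with Cxcl2 (1.69 ± 0.341), and Ccl2 (0.926 ± 0.0514) came last. In wild type cells Cxcl16 (96.9 ± 3.20) and Cxcl1 (11.3 ± 1.29) also led, but Cxcl10 (4.27 ± 0.762) came next, ahead of Cxcl5 (2.40 ± 0.448) and Ccl5 (1.92 ± 0.182). Cx3cl1 (1.28 ± 0.233), Cxcl2 (1.16 ± 0.250) and Cxcl3 (1.08 ± 0.247) overlapped their neighbours in that order, and Ccl20 (0.384 ± 0.0486) and Ccl2 (0.195 ± 0.0775) came last (all SD, n = 3). Cxcl10 was thus the member in 3rd place in wild type cells and 6th in knockout cells.

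The counts called in the related lists stand beside 24.8% of all tested genes called higher and 23.7% called lower, so calls in both directions occur in genes at large. Of 28 other chemokine ligands, 18 had too few counts to be tested, 1 was higher, 5 were lower and 4 were not called. Their median log2 fold change was -0.75, against 0.01 for all genes, and their range ran from -3.24 to 2.38. Ppbp, given above, was the one that rose. Cxcl14, a chemokine that epidermis makes without inflammation, fell to 22.1 ± 1.80 CPM in knockout cells, against 59.1 ± 1.64 CPM in wild type cells (log2 fold change -1.42 ± 0.08, SE, edgeR adjusted p = 3.69e-10). Ccl27a, a keratinocyte chemokine that draws skin-homing T cells, fell to 6.97 ± 1.03 CPM, against 16.2 ± 0.721 CPM in wild type cells (-1.22 ± 0.12, SE, edgeR adjusted p = 3.08e-07). Cxcl9 and Cxcl11, which share the receptor Cxcr3 with Cxcl10 and are named here after their values were seen, were not called. Cxcl9 averaged 0.443 CPM in knockout and 0.334 CPM in wild type cells (edgeR adjusted p = 0.53), and Cxcl11 1.39 CPM in knockout and 0.921 CPM in wild type cells (edgeR adjusted p = 0.0733). With library totals Cxcl11 (log2 fold change 0.80, edgeR adjusted p = 0.0205) and Ccl25 (0.39, adjusted p = 0.011) were called higher as well, 3 ligands in all.

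The remaining 3 ligands called lower were low in level and are known from myeloid cells, as are several macrophage markers that moved with them. Ccl6 averaged 0.121 CPM in knockout and 1.08 CPM in wild type cells, Ccl9 averaged 0.0458 CPM in knockout and 0.427 CPM in wild type cells, and Pf4 was as given above. Of 9 macrophage and monocyte markers, whose sum was 53.2 to 58.2 CPM in knockout and 63.7 to 75.9 CPM in wild type libraries, 5 could be tested, of which Csf1r, Cd68, C1qa and Lyz2 were lower and Cd14 higher. Lyz2 stood at 0.0439 ± 0.0671 CPM in knockout and 1.14 ± 0.366 CPM in wild type cells, and C1qa at 0.0465 ± 0.0806 CPM in knockout and 0.561 ± 0.0879 CPM in wild type cells (SD, n = 3 each). Cd68, at 27.2 CPM in knockout and 49.1 CPM in wild type cells, and Cd14, at 26.5 CPM in knockout and 14.5 CPM in wild type cells, made up most of the sum. The pan-leukocyte marker Ptprc averaged 0 CPM in knockout and 0.0197 CPM in wild type cells. The part of such cells in the chemokine values was not tested.

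Markers of other cells that make or follow these chemokines were scarce. Neutrophil markers summed to 0 to 0.131 CPM in knockout and 0.00897 to 0.0902 CPM in wild type libraries, with Ly6g and Camp at 0 throughout. T cell markers summed to 0.636 to 0.662 CPM in knockout and 0.215 to 0.321 CPM in wild type libraries. Cd3e, Cd3d and Cd2 were at 0 in all libraries, and Trdc, 1 of 6 in that list, was called higher, at 0.438 ± 0.132 CPM in knockout and 0.0293 ± 0.0343 CPM in wild type cells (SD, n = 3 each). Langerhans and dendritic cell markers summed to 2.02 to 3.05 CPM in knockout and 1.67 to 3.06 CPM in wild type libraries, with Cd74 called higher (0.379 CPM in knockout and 0.172 CPM in wild type cells, edgeR adjusted p = 0.0476). Mast cell markers summed to 0.504 to 0.593 CPM in knockout and 0.314 to 0.632 CPM in wild type libraries, with Cpa3 and Mcpt4 at 0. Fibroblast markers summed to 4.18 to 4.64 CPM in knockout and 5.14 to 6.54 CPM in wild type libraries, with Lum at 0 and Pdgfra called lower (log2 fold change -0.93), and endothelial markers to 5.19 to 6.10 CPM in knockout and 7.15 to 7.96 CPM in wild type libraries, with Cdh5 and Emcn at 0 and Kdr called lower (-0.42). Melanocyte markers were plain, at 605 to 687 CPM in knockout and 691 to 780 CPM in wild type libraries, with 4 of 6 called lower, among them Pmel, whose log2 fold change of -0.17 became 0.03 with library totals. The part of these cells in the result was not tested.

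Few chemokine receptors were measurable, as 16 of 23 had too few counts to be tested. Of the 7 tested, 4 were lower, 3 were not called and 0 were higher by edgeR, also at an unadjusted p under 0.05 and with DESeq2 or limma voom. Ccr6 and Ackr1 had no counts, and Cxcr2, the receptor of the neutrophil attractants, averaged 0.787 ± 0.187 CPM in knockout and 2.29 ± 0.272 CPM in wild type cells (SD, n = 3 each), a log2 fold change of -1.55 ± 0.22 (SE, edgeR adjusted p = 2.25e-05). Ccr1, a receptor of Ccl5 that is known from myeloid cells, fell to 0.536 ± 0.112 CPM, against 4.96 ± 1.24 CPM in wild type cells (log2 fold change -3.21). The scavenging receptor Ackr3 had the highest CPM of the 7, at 14.4 ± 1.21 CPM in knockout and 17.2 ± 0.814 CPM in wild type cells (-0.25 ± 0.10, SE, edgeR adjusted p = 0.0414). Its call was lost with library totals (-0.05), with no filter on low counts (-0.25), and without wild type library 2 or 3 or knockout library 5 or 6. Cx3cr1, the receptor of Cx3cl1, named after its values were seen, averaged 0.179 CPM in knockout and 0.427 CPM in wild type cells (-1.25, edgeR adjusted p = 0.0341), and lost its call with library totals and without wild type library 1 or 3 or knockout library 4 or 6. Thus 2 receptors were called lower with library totals, without wild type library 3 or without knockout library 6. Cxcr6, the receptor of Cxcl16, had 2, 13 and 14 counts in the knockout libraries, against 2, 0 and 0 in the wild type libraries, too few for the test, but was called higher with no filter (edgeR adjusted p = 0.0275) and without wild type library 1 (adjusted p = 0.0114) or knockout library 4 (adjusted p = 0.00663).

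A list of 16 genes held sheddases, sheddase partners (the iRhoms Rhbdf1 and Rhbdf2), other proteases that act on chemokines, and protease inhibitors. Of these, 6 were higher, among them both iRhoms, and 7 lower, 3 did not pass the test, and the median was -0.14. Over all genes 24.8% were higher and 23.7% lower. The gelatinase gene Mmp9, whose product trims several CXC chemokines, rose to 658 ± 66.8 CPM in knockout cells, against 42.0 ± 3.83 CPM in wild type cells (log2 fold change 3.97 ± 0.09, SE, edgeR adjusted p = 1.31e-14). The protease inhibitor genes Timp1 and Timp3 went opposite ways, with log2 fold changes of 3.16 and -3.16. The sheddases of Cx3cl1 and Cxcl16, named here after their values were seen, were not called. Adam10 averaged 40.5 CPM in knockout and 37.2 CPM in wild type cells (edgeR adjusted p = 0.274) with a call as higher under library totals (0.32, adjusted p = 0.00851) and without knockout library 5 (0.22, adjusted p = 0.0388). Adam17 averaged 66.4 CPM in knockout and 72.5 CPM in wild type cells (edgeR adjusted p = 0.123).

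Of 16 genes of NF-κB subunits, inhibitors and upstream kinase complexes, 10 were higher and 2 lower, where 24.8% and 23.7% of all genes were. The other 4 did not pass the test, and the median log2 fold change of the 16 was 0.40. Map3k14, the kinase of the non-canonical NF-κB route, rose by 1.79 ± 0.16 log2 units (SE, edgeR adjusted p = 1.68e-07), Nfkbie, an inhibitor of NF-κB, by 1.65 and Tnfaip3, which ends NF-κB signalling, by 1.11. The 2 lower genes, named after their values were seen, were Rela (log2 fold change -0.34) and Chuk (-0.18), and neither was called with library totals (-0.14 and 0.02). The call of Chuk was also lost with no filter, with a mean of at least 1 CPM, and without wild type library 2 or 3 or knockout library 5 or 6. Among the higher genes, Nfkbid, also named after its values were seen, lost its call without wild type library 2 or 3 or knockout library 4. Nfkbiz, likewise named after its values were seen, was not called in the main test (log2 fold change -0.24). It was called lower with no filter (edgeR adjusted p = 0.00121) and with DESeq2 (adjusted p = 0.0417). The same held without wild type library 2 (edgeR adjusted p = 0.0178) or knockout library 6 (adjusted p = 0.0315).

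Of the interferon pathway factors known to act on Cxcl10, 11 of 17 tested were higher and 1 lower, 5 did not pass the test, and the median was 0.57. The lower one, named after its values were seen, was Irf5 (log2 fold change -0.44), which was not called with library totals (-0.24). Without wild type library 2, Socs1 was called lower too (-0.48, edgeR adjusted p = 0.0367). Irf9, also named after its values were seen, lost its call as higher with no filter (0.74, edgeR adjusted p = 0.0996). It lost it as well without wild type library 1 (0.71, adjusted p = 0.0936), where Socs3 was called higher (0.45, adjusted p = 0.0141). With library totals 14 were higher, as Irf3, Stat3 and Tbk1 were called too. Irf1 rose to 33.2 ± 2.93 CPM in knockout cells, against 6.85 ± 0.428 CPM in wild type cells (log2 fold change 2.27 ± 0.10, SE, edgeR adjusted p = 2.69e-11). The kinase gene Ikbke rose by 1.32 log2 units. These rises stood beside a Cxcl10 level that was not called.

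Among 23 tested cytokines and receptors that induce chemokines in keratinocytes, 7 were higher, 9 lower and 7 not called (median -0.12). Tnf rose to 30.9 ± 3.52 CPM in knockout cells, against 4.19 ± 0.503 CPM in wild type cells (log2 fold change 2.88 ± 0.12, SE, edgeR adjusted p = 1.49e-11). The interleukin-36 agonist gene Il36b and the antagonist gene Il36rn, listed in the reference under their older symbols Il1f8 and Il1f5, fell by 2.97 and 2.87 log2 units. Of 12 genes whose proteins bind chemokine mRNAs, 6 were higher, 4 lower and 2 not called (median 0.13). With library totals 7 were higher and 2 lower, as Khsrp was called higher and Elavl1 and Hnrnpd lost their calls. Only 4 were higher without wild type library 2 or 3 or knockout library 5, where Zfp36l1 and Arid5a lost their calls. Zc3h12a, the gene of a nuclease that destroys inflammatory transcripts, rose by 1.52, whereas Zfp36 and Zfp36l2, whose products bind AU-rich elements and speed decay, fell by 1.12 and 1.27 log2 units.

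**Figure D5:**
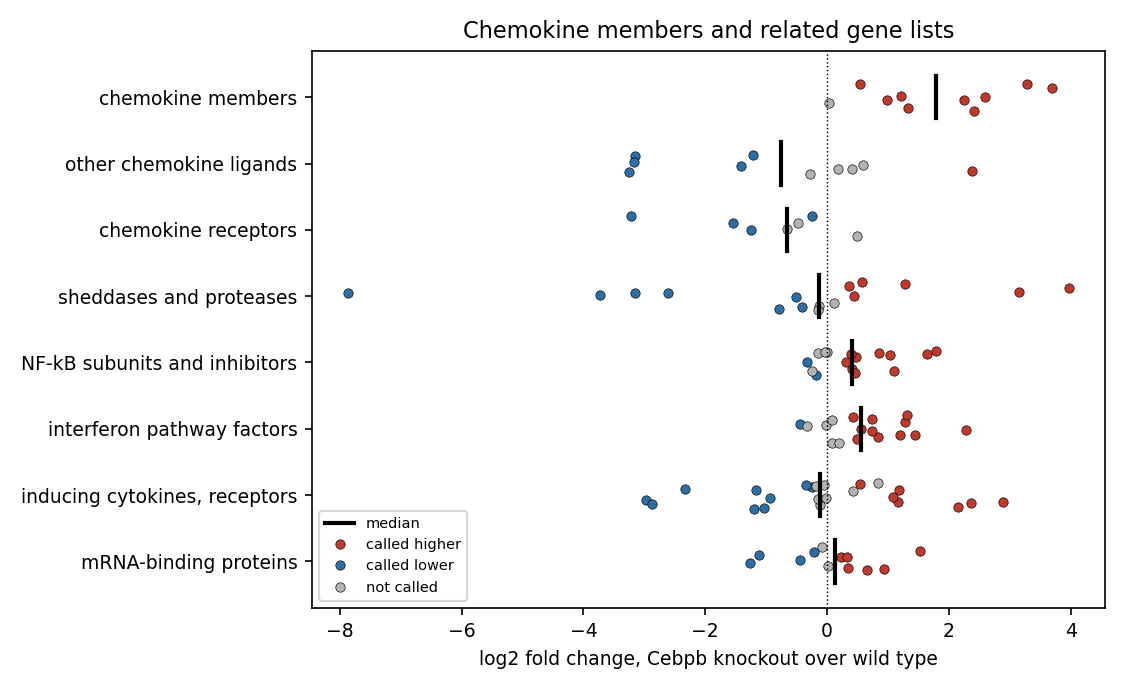
Log2 fold change, Cebpb knockout over wild type, of the chemokine members and of the tested genes of 7 related lists, with a point for each gene (red, called higher; blue, called lower; grey, not called) and a black bar at each median. The members' median is 1.79, that of the other chemokine ligands -0.75 and that of the receptors -0.66.

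Genes whose profile over the 6 libraries lay closest to a member were found by the Euclidean distance of centred log2 CPM among 11196 other genes. Such distances mostly reflect the difference between knockout and wild type libraries. Closest to Cxcl1 were Stmn2 (distance 0.259) and Tnf (0.294), and closest to Cxcl5 were C1qtnf1 (0.162) and Adamts4 (0.222). Cldn6 (0.334) and Fbxo40 (0.407) lay closest to Cx3cl1, Il23a (0.359) and Fxyd5 (0.366) to Ccl20, and Nek8 (0.0598) and Ctsz (0.0747) to Cxcl16. For the remaining members these were Nbea and Pcdhgb2 (Cxcl3), Hcar2 and Gm20045 (Cxcl2), Myl6b and Oas3 (Ccl2), Thap2 and Lpgat1 (Ccl5), and Fat2 and Mtrex (Cxcl10). Since 0.5 CPM was added before the log, the differences of scarce members shrink in these profiles. Myl6b and Oas3 had log2 fold changes of 1.22 and 1.14, against 2.25 for Ccl2.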

How the data were processed

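The authors deposited raw counts of reads per gene, whole numbers in 1 table with a column for each of 6 libraries. FastQC, STAR, HTSeq and DESeq2 and the builds mm39 and GRCm39 are named per the submitters' processing notes. Which versions, annotation release and strand setting they used is not given here. Symbols were matched by identifier for 52083 of 55416 genes. Members and lists were chosen with earlier results of these data known. Genes were tested with edgeR 4.0.16 (R 4.3.3) by its robust quasi-likelihood test, genotype being the only factor, after filterByExpr (minimum 10 counts; 17659 genes) and TMM scaling, with calls made under 0.05 after Benjamini-Hochberg adjustment. A standard error is the log2 fold change over the square root of F. CPM are TMM-scaled. Data of 17659 genes were simulated with 1 spread for all genes (biological coefficient of variation 0.109) and 100 changed genes of each size. On these, edgeR recovered 88% of changes of 1 log2 unit and 100% of changes of 2. In the real data spread differs between genes and 48.6% were called, so recovery there may differ. Named genes were the members, up to 3 called genes of each list with the largest change and a mean of at least 1 CPM, and the 2 closest profiles (log2 of CPM plus 0.5) with a mean of at least 2 CPM. RefSeq promoters and GENCODE M21 transcripts belong to GRCm38, an older build than the authors', so they served for sequence, length, overlap and gene order. A gene that this rule takes is not reported here. Alternatives were other scalings and filters, DESeq2 1.42.0, limma 3.58.1 voom, and leaving out each library. Protein sequences were not used here.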

Additional observations from a re-analysis of the deposited data

How the results depend on the processing

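The count of members called higher was 9, and 8 to 9 under the 12 alternatives; the count of members called lower was 0 throughout. It was 8 with a mean of at least 1 CPM, which leaves out Ccl2, and 8 without wild type library 2 or 3 or knockout library 5 or 6, where Cxcl2 lost its call. Leaving out 1 library gave Cxcl2 log2 fold changes of 0.38 to 0.69. The other 8 called members kept direction and call wherever they were tested. Cxcl10 was never called and ranged from -0.24 to 0.24. With library totals, 2452 genes were lower in place of 4192, a setting that shifts all genes upward. Adding 0.5 counts changed no direction among the 6 ratios. Over the genes of the related lists 73 were called, and 66 to 74 under the alternatives. No paired analysis was possible because library numbers run from 1 to 6 and none is shared between genotypes. Depth limits Ccl2 most, with 11 to 22 counts in wild type libraries.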

Other observations

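The members also differed in the AU-rich letters that mark short-lived inflammatory mRNAs. The heptamer TATTTAT, known to be bound by Zfp36 and its relatives, was counted after the stop codon of the longest coding transcript in GENCODE M21. Cxcl2 held 7 and Cxcl1 held 6, numbers reached by 0.262% and 0.476% of 21020 coding genes. Cxcl3 held 2, and Cxcl5, Cx3cl1 and Ccl20 held 1 each, where 27.4% of genes held at least 1. Cxcl10, Cxcl16, Ccl2 and Ccl5 held 0. Per kilobase after the stop codon, Cxcl1 held 10.1 and Cxcl2 held 4.69. The log2 fold change was 0.54 for Cxcl2 and 2.59 for Cxcl1, and a relation to these letters was not tested.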
